A study of Mus musculus with 14 samples.

Results

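The subject is 5 genes grouped as secreted antimicrobial genes, Slpi, Lcn2, Wfdc18, Wfdc21 and Pglyrp1, and antimicrobial action was not measured. These genes were followed by RNA-seq while SOX9 was induced in epidermal stem cells (EpdSCs) of adult mouse skin. They were found by symbol among the 54332 genes of the time-course table, and all 5 were chosen with their readout known: Slpi was selected on its large rise between D0 and W12, so values against D0 are given for the 5 as a description and carry no test. All 5 passed the filter of a mean of at least 1 TPM (transcripts per unit of RNA, scaled so that each library sums to 1000000) over 10 libraries, as did 13110 genes in all, and Pglyrp1 passed it only through its W12 libraries.

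Mice carried K14rtTA and TRE-myc-Sox9, so that doxycycline switches on myc-tagged SOX9 under the Krt14 promoter in basal keratinocytes. The cells were EpdSCs sorted from the back skin of CD1 animals, labelled male, as negative for CD31, CD45, CD117 and CD140a, high for CD49f, negative for CD34 and high for Ly6A. D0 was taken at postnatal day 21 without induction, and W1, W2 and W6 after 1, 2 and 6 weeks of doxycycline, at postnatal days 28, 35 and 63. W12 was taken after 12 weeks from newborn transgenic skin grafted onto female Nude hosts, so that grafting and the longest induction cannot be told apart, and age rises with time at the other timepoints. Each timepoint had 2 libraries, the transgene was present in every group including D0, and no age-matched uninduced RNA was analysed here. Labels did not say whether the 2 libraries of a timepoint came from separate animals, so the tests measure the spread between these libraries.

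In a check of the labels, the myc-Sox9 transgene lay at 45.6 to 89.6 TPM at D0 and at 606 to 3414 TPM in the 8 induced libraries. In the library labelled D0 replicate 2, Xist stood at 4.61 TPM and Ddx3y, a gene of the Y chromosome, at 0.0278 TPM. D0 replicate 1 had 0.00103 TPM of Xist and 32.1 TPM of Ddx3y, so that D0 replicate 2 goes against its male label. Both W12 libraries held Xist, at 5.51 and 3.50 TPM, together with Ddx3y at 10.97 and 12.9 TPM. The hosts of the grafts were female, whether host cells entered these libraries was not tested, and each W12 level is that of the whole sorted sample. Pearson's r between the replicates of a timepoint, on log2(TPM + 1), was 0.958 to 0.988.

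SLPI and the other proteins with a WAP four-disulfide core, the fold shared by WFDC proteins, are small secreted proteins, and SLPI blocks serine proteases such as neutrophil elastase and also acts on microbes directly. Lipocalin 2, the product of Lcn2, withholds iron from bacteria by binding their siderophores, and PGLYRP1 binds the peptidoglycan of bacterial walls. In skin, Slpi and Lcn2 belong to the barrier defence that keratinocytes raise in wounds and inflammation. Slpi, Lcn2 and Pglyrp1 are also made by neutrophils. WFDC18 and WFDC21 are less studied rodent members of the WAP family.

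The start regions of Slpi and Wfdc18 are printed because these genes rose most and both windows held the ACAATG form of the SOX motif. They are the 250 bases before the RefSeq start in GRCm38.p6, at chr2:164356508-164356757 on the minus strand and chr11:83708754-83709003 on the plus strand, read 5′ to 3′ along the gene, with motif matches in capitals.
Slpi: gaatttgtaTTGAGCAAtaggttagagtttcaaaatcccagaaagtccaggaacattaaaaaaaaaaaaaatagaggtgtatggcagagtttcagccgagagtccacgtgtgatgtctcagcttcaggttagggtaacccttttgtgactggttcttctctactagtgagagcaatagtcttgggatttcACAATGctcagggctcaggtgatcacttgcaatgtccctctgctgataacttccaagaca
Wfdc18: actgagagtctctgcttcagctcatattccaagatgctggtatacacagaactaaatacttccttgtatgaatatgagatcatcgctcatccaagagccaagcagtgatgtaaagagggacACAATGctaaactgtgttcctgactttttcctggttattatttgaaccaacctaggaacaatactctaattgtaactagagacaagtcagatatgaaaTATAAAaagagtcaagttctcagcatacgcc
In Slpi the capitals mark a match to the C/EBP motif TTGCNNAA on the opposite strand, whose first letter lay 241 bases before the start, and ACAATG 60 bases before it. In Wfdc18 they mark ACAATG 129 bases and the TATA motif TATAAA 31 bases before the start. Both strands were searched for these motifs and for ACAAAG (SOX), TGTGGT (RUNX), TGANTCA (AP-1) and the NF-kB motif, GGGA and TTCC parted by any 2 bases. Of 32851 promoters of the same length, 10.7% held ACAATG, 16.5% ACAAAG, 14% TGTGGT, 6.75% TGANTCA, 1.21% the NF-kB motif, 9.56% TTGCNNAA and 12.4% TATAAA. The windows of Lcn2 and Pglyrp1 overlap annotated exons and are not printed. That of Lcn2 held TTGCNNAA, and that of Pglyrp1 held ACAAAG and the NF-kB motif. Wfdc21 had no entry in the promoter table.

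Slpi went from nearly undetected at D0 to one of the most abundant transcripts at W12. Its level was 0.527 and 0.148 TPM in the D0 libraries, 2.10 and 5.80 at W1, 5.15 and 13.5 at W2, 141 and 66.9 at W6, and 1126 and 1566 at W12. Every library of W6 stood above every library of W2, and every library of W12 above W6, while W1 and W2 overlapped. By mean TPM, Slpi moved up the ranking of all genes from place 14494 (D0) through 10189 (W1), 8139 (W2) and 1562 (W6) to 119 (W12). The fitted log2 change from D0, on the log2(TPM + 1) scale, which understates changes of low genes, was 1.79 (W1), 2.83 (W2), 6.21 (W6) and 9.97 (W12) (standard error 0.52, n = 2 per timepoint). Without D0 replicate 2 the W12 value was 9.77, and with a pseudocount of 0.1 the 4 values were 3.19, 4.42, 7.95 and 11.7. In these sorted bulk libraries, a change in the number of cells that make a transcript and a change in its level per cell cannot be told apart.

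Wfdc18 followed the same order of levels as Slpi at W6 and W12 but stood higher at W1. It was at 0.288 and 0.140 TPM at D0, 7.87 and 9.01 at W1, 11.1 and 6.22 at W2, 36.0 and 29.4 at W6, and 168 and 331 at W12. The D0 libraries lay below all others, W1 and W2 overlapped, and W6 and W12 each stood apart. Its log2 change from D0 was 2.96 (W1), 2.95 (W2), 4.79 (W6) and 7.61 (W12) (standard error 0.34). With a pseudocount of 0.1 these were 4.81, 4.79, 6.74 and 9.60.

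Lcn2 was at 0.361 and 0.167 TPM at D0, 0.666 and 1.32 at W1, 6.72 and 7.06 at W2, 33.6 and 6.67 at W6, and 58.9 and 104 at W12. By ratio the W6 replicates differed most, and W6 replicate 2 lay at the W2 level. Its log2 change from D0 was 0.64 (W1), 2.65 (W2), 3.69 (W6) and 5.97 (W12) (standard error 0.59). With a pseudocount of 0.1 these were 1.57, 4.32, 5.43 and 7.80. Of the 3 genes that were near 0 at D0 and high at W12, Lcn2 had the lowest W12 level.

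Pglyrp1 stayed low, at 0.396 and 1.06 TPM at D0, 0.890 and 0.993 at W1, 1.39 and 0.722 at W2, 1.55 and 0.933 at W6, and 3.98 and 4.62 at W12. Only the W12 libraries stood apart from D0, and the timepoints from D0 to W6 overlapped one another. The log2 change from D0 was 0.39 at W6 and 1.64 at W12 (standard error 0.28), and 0.79 and 2.53 with a pseudocount of 0.1.

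Wfdc21 ran the other way. Its levels were 14.0 and 3.05 TPM at D0, 15.9 and 19.5 at W1, 8.45 and 5.16 at W2, 1.23 and 6.04 at W6, and 0.393 and 1.83 at W12. It was highest at W1, and its W12 libraries lay below both D0 libraries. The log2 change from D0 was 1.26 (W1), -0.03 (W2), -0.97 (W6) and -1.97 (W12) (standard error 0.69). The D0 replicates decided much of this, since leaving out D0 replicate 2 gave 0.31 at W1, -1.92 at W6 and -2.91 at W12, and leaving out D0 replicate 1 gave 2.20, -0.03 and -1.03.

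**Figure D1:**
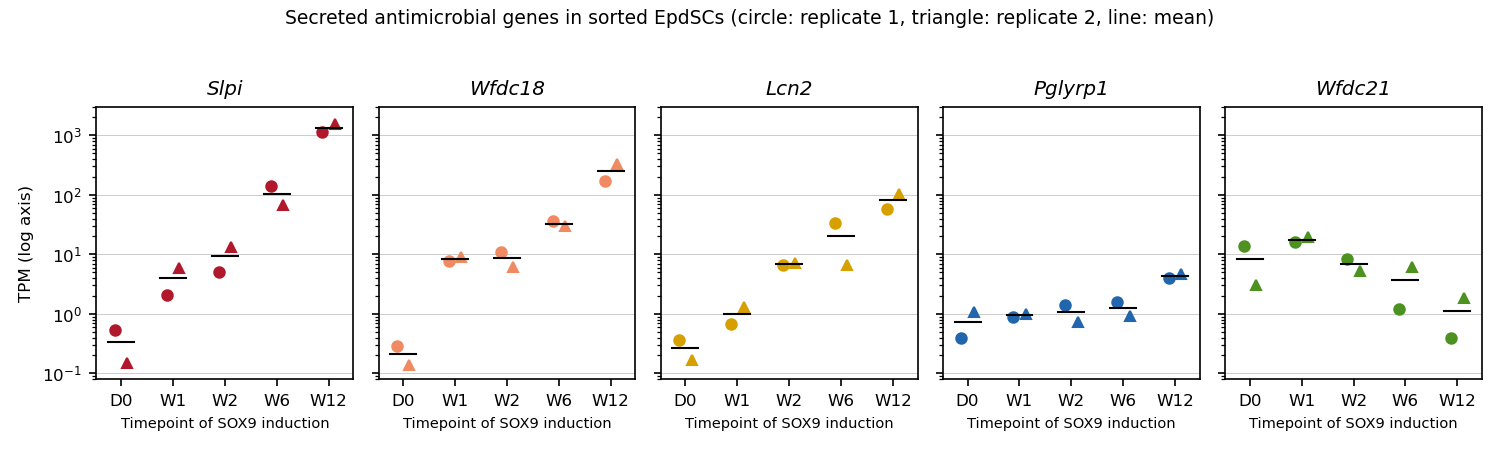
TPM on a log axis by timepoint for each of the 5 genes, with circles for replicate 1, triangles for replicate 2 and lines for the mean of the 2 libraries. Slpi, Wfdc18 and Lcn2 climb from under 1 TPM at D0 to means of 1346, 249.7 and 81.4 TPM at W12, Pglyrp1 reaches 4.30 TPM, and Wfdc21 falls to 1.11 TPM.

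The plot of TPM by timepoint shows that the order of the 5 genes turned over. At D0 Wfdc21 was the highest of them, with a mean of 8.51 TPM, and each of the others had a mean under 1 TPM. At W12 the order was Slpi, Wfdc18, Lcn2, Pglyrp1 and Wfdc21. Neighbours in that order at W12 did not overlap between libraries. At W6, 4 of the 5 genes were higher in replicate 1 than in replicate 2, with Wfdc21 as the exception.

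The stated choice of Slpi rested on D0 and W12, and the steps between W1, W2 and W6 were tested. The test was limma on log2(TPM + 1) with Benjamini-Hochberg adjustment over the 13110 genes. All 5 genes were chosen with results of these data known, so these tests may not be independent of that choice. Between W2 and W1, 0 of the 5 genes passed an adjusted p of 0.05 in limma, against a background of 0.114% of genes called (15 genes, with 1900 at an unadjusted p under 0.05). Of the 5, 1 had an unadjusted p under 0.05 there, Lcn2. Between W6 and W1, 4 of 5 passed, against 22.9% of all genes. Between W6 and W2, 2 of 5 passed, against 16.3%. Pglyrp1, which reached the filter through W12 alone, is counted in each 5 and passed in none of these steps.

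Slpi was 26.3-fold higher in mean TPM at W6 than at W1. On the log2(TPM + 1) scale of the fit, the change was 4.42 ± 0.52 (SE, limma adjusted p = 0.00133). From W2 to W6 it rose by 3.38 ± 0.52 (adjusted p = 0.00638), and without W2 replicate 1 this was 2.76 with an adjusted p of 0.0577. Its W2 minus W1 difference of 1.04 ± 0.52 did not pass (adjusted p = 0.395). Wfdc18 rose by 1.83 ± 0.34 from W1 to W6 (adjusted p = 0.0080) and by 1.85 ± 0.34 from W2 to W6 (adjusted p = 0.0122). The first call was lost without W1 replicate 1 (1.75, adjusted p = 0.0544) and the second without W2 replicate 2 (1.47, adjusted p = 0.0892). Between W1 and W2 its difference was -0.01 ± 0.34.

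Lcn2 rose by 3.05 ± 0.59 from W1 to W6 (limma adjusted p = 0.00952), and without W1 replicate 1 the change was 2.82 with an adjusted p of 0.0646. Its W2 minus W1 difference, 2.01 ± 0.59, did not pass (adjusted p = 0.189) although the libraries did not overlap, and it passed when either W6 library was left out (adjusted p = 0.0467 and 0.0456). From W2 to W6 the value was 1.05 ± 0.59, and it turned on the W6 libraries, being -0.04 without replicate 1 and 2.13 without replicate 2 (adjusted p = 0.0161). Wfdc21 fell by 2.23 ± 0.69 from W1 to W6 on the log2 scale (adjusted p = 0.0483). That call was lost when any one of the W1, W2 or W12 libraries or W6 replicate 1 was left out (value -1.40, adjusted p = 0.198, without W6 replicate 1) and under 5 other settings, with the replicate number as a block among them (adjusted p = 0.0689). Pglyrp1 differed by 0.19 ± 0.28 between W6 and W1 (adjusted p = 0.644), which does not show that its levels were equal.

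**Figure D2:**
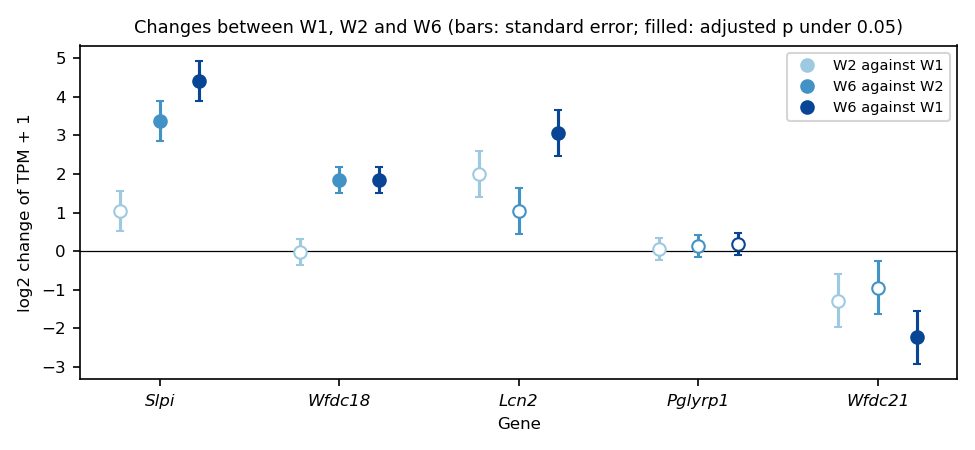
Log2 change of TPM + 1 for each gene between W1, W2 and W6, with bars for the standard error of the limma fit and filled points where the adjusted p was under 0.05. Slpi and Wfdc18 are filled in both steps that end at W6, at 3.38 and 4.42 for Slpi and 1.85 and 1.83 for Wfdc18, Lcn2 and Wfdc21 only for W6 against W1, and Pglyrp1 in none.

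The plot of these changes shows larger values for the step from W2 to W6 than for the step from W1 to W2 in Slpi and Wfdc18, a difference that was not itself tested. For Lcn2 the W2 and W6 steps had overlapping error bars.

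Other genes of the same families and functions were taken as lists and counted against the share of all genes called. At W6 against D0, 18.3% of all genes were called higher and 14.1% were called lower, and the median log2 change over all genes was 0.08. At W12 against D0, the shares were 17.9% higher and 25.1% lower, and the median was -0.08. Under median-ratio scaling the median at W12 was 0.0072, and 50.4% of the called genes were higher, against 41.7% as fitted. The lists and the genes named from them were chosen with such results known, and the adjusted p of a named gene comes from the fit over all genes. Of the listed genes, those that reached the filter through W12 alone had to differ there. For these the levels are given with no test, and counts without them, a choice made after seeing the data, stand beside the counts.

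Of 18 other WFDC genes, 3 were tested and 4 were listed at 0 in all 10 libraries. At W6 2 of the 3 were higher and at W12 all 3, or 2 of 2 without Wfdc12, with list medians of 1.60 and 3.92, and 1.72 and 3.80 without Wfdc12. Without D0 replicate 2, 1 was higher at W6. Wfdc2, a secreted epithelial WAP protein, had D0 levels of 2.33 and 0.602 TPM and W12 levels of 47.4 and 128 TPM, a change of 5.09 ± 0.46 (SE, limma adjusted p = 8.979e-05). Its W6 change of 1.60 lost its call without D0 replicate 2 (1.07, adjusted p = 0.182) or without either W6 library. Wfdc12 passed the filter only through W12, where it lay at 9.40 and 22.4 TPM against at most 0.0545 at D0. Wfdc5 rose by 1.85 ± 0.37 at W6 and 2.50 ± 0.37 at W12 (adjusted p = 0.00646 and 0.00108), and the W6 call was lost when only the 4 libraries compared were fitted (adjusted p = 0.0597).

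The peptidoglycan sensors split. Of 5 listed genes besides Pglyrp1, 4 were tested, and at both W6 and W12 1 was higher and 3 lower, with medians of -1.92 and -1.66. Pglyrp3, a secreted relative of Pglyrp1 made by epithelia, was at 0.247 and 0.333 TPM at D0, 8.34 and 8.25 at W6, and 7.97 and 7.06 at W12 (W12 change 2.72 ± 0.33, limma adjusted p = 0.000407). Pglyrp4, another secreted relative, was at 27.7 and 5.08 TPM at D0 and 1.40 and 2.41 at W12 (-2.21 ± 0.61, adjusted p = 0.0190). Its W12 call was lost without either W12 library (adjusted p = 0.111 and 0.0583), and its W6 call under every omission except that of D0 replicate 2. The intracellular sensor Nod1 fell from 24.7 and 38.0 TPM at D0 to 5.54 and 6.74 at W12 (-2.15 ± 0.23, adjusted p = 0.000239).

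Of 25 other antimicrobial genes, 11 were tested, 3 of them through W12 alone, and 4 were higher and 1 lower at W6, against 6 and 1 at W12. Without those 3 genes, S100a7a, Cfb and Ltf, the W12 counts were 3 and 1. S100a7a was at 19.6 and 17.9 TPM at W12 against 0.356 and 0.444 at D0, and the complement gene Cfb at 9.39 and 26.7 TPM against 0.243 and 0.463. List medians were 0.53 and 2.44, and without the 3 genes 1.51 and 0.18. Without D0 replicate 2 the number lower at W6 was 2, and without D0 replicate 1 the number lower at W12 was 0. S100a9 and S100a8, which form the metal-binding protein calprotectin, showed the largest changes. S100a9 was at 0.0949 and 0.215 TPM at D0, 65.2 and 31.8 at W6, and 525 and 503 at W12 (W12 change 8.80 ± 0.55, limma adjusted p = 1.767e-05). S100a8 rose by 6.70 ± 0.81 at W12 (adjusted p = 0.00041), and its W6 change of 3.70 lost its call without W6 replicate 1 (3.32, adjusted p = 0.0502). The beta-defensin Defb14 rose from 1.83 and 0.836 TPM at D0 to 169 and 158 at W12 (6.17 ± 0.31, adjusted p = 6.218e-06). Another beta-defensin, Defb6, named after its values were seen, was at 376 and 141 TPM at D0, 3776 and 1745 at W6, and 160 and 247 at W12.

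**Figure D3:**
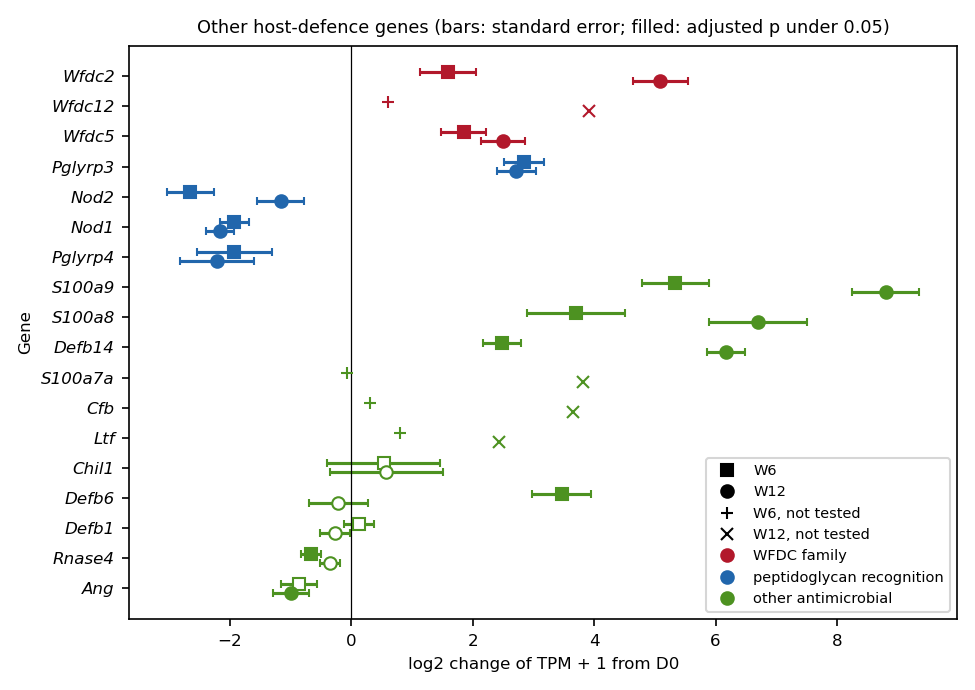
Log2 change of TPM + 1 from D0 at W6 (squares) and W12 (circles) for the tested genes of the WFDC, peptidoglycan and other antimicrobial lists, with bars for the standard error and filled symbols for an adjusted p under 0.05. Genes that reached the filter through W12 alone are drawn with no test, as plus signs (W6) and crosses (W12). S100a9, S100a8 and Defb14 reach 8.80, 6.70 and 6.17 at W12, whereas Nod1 and Pglyrp4 lie at -2.15 and -2.21.

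In the plot of host-defence genes, W12 lay to the right of W6 for the 3 WFDC genes and for S100a9, S100a8 and Defb14, a difference that was not tested. Defb6 stood at 3.47 at W6 and -0.21 at W12.

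Iron-handling genes were mixed. Of 10, 9 were tested, with 3 higher and 2 lower at W6 and 3 higher and 1 lower at W12, and list medians of 0.78 and 0.25. Without D0 replicate 2 the W6 counts were 1 and 1. Trf, which encodes the iron carrier transferrin, reached the filter through W12 alone, at 4.91 and 10.3 TPM against 0.0601 and 0.0422 at D0, and without it 2 genes were higher at W12 and the medians were 0.52 and 0.20. Hmox1, which frees iron from haem, rose by 1.65 ± 0.31 at W12 (limma adjusted p = 0.00369), and the iron exporter Slc40a1 by 1.58 ± 0.28 (adjusted p = 0.00272). At W6 Slc40a1 was up by 3.02 ± 0.28 (adjusted p = 0.000219). Fth1, the gene called lower at W12, fell by 1.45 ± 0.22 on the log2 scale (adjusted p = 0.00136). Its mean was 4183 TPM at D0 and 1521 TPM at W12. The sum of the list was 5283 to 6522 TPM at D0 and 2885 to 3330 TPM at W12.

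Among proteases and binding partners of SLPI-type inhibitors, 9 of 15 were tested, with 5 higher and 1 lower at W6 and 4 higher and 0 lower at W12 in limma (1 lower at an unadjusted p under 0.05). List medians were 1.72 and 1.48. With either D0 library left out, 1 gene was lower at W12. Neutrophil elastase (Elane), the best known target of SLPI, was listed at 0 in all 10 libraries. The kallikrein protease gene Klk6 was at 1.21 and 0.453 TPM at D0, 337 and 103 at W6, and 134 and 189 at W12 (W12 change 6.48 ± 0.51, limma adjusted p = 5.028e-05). Klk10, another kallikrein gene, rose by 2.61 ± 0.37 at W12 (adjusted p = 0.000931). Plscr1, a phospholipid scramblase reported to bind SLPI, reached the filter through W12 alone, at 12.6 and 18.2 TPM against 0.133 and 0.217 at D0. Without it 4 genes were higher at W6 and 3 at W12, with medians of 1.77 and 1.01.

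Transcripts of the NF-kB, IL-1 and IL-17 pathways, a known route to antimicrobial genes in keratinocytes, were lower more often than higher, which is a count of genes and not a measure of signalling. Of 31 genes, 29 were tested, with 2 higher and 11 lower at W6 and 7 higher and 13 lower at W12, and list medians of -0.37 and -0.52. Without D0 replicate 2, 0 were higher at W6 in limma (1 at an unadjusted p under 0.05). Without Cxcl2 and Cxcl5, which reached the filter through W12 alone, the counts were 1 and 11 at W6 and 5 and 13 at W12, with medians of -0.43 and -0.53. The 11 lower genes at W6, named after their values were seen, were the NF-kB subunit genes Rela, Relb and Nfkb2, the kinase gene Ikbke, the receptor genes Il1r1 and Il17rc, the adaptor gene Traf3ip2, and 4 inhibitors. Of the inhibitors, Tnfaip3 and Nfkbia, which restrain NF-kB, fell by 3.50 ± 0.33 and 1.94 ± 0.14 on the log2 scale (limma adjusted p = 0.000233 and 7.039e-05). The cytokine-signalling inhibitor Socs3 fell by 1.82 ± 0.39 and the IL-1 receptor antagonist gene Il1rn by 1.15 ± 0.17 (adjusted p = 0.00959 and 0.00169). At W12 the changes were -2.08 for Tnfaip3, -0.52 for Nfkbia and -1.65 for Socs3, which passed, and -0.42 for Il1rn, which did not (limma adjusted p = 0.0733). Cxcl2, which encodes a neutrophil attractant, was at 15.7 and 10.5 TPM at W12 against 0.105 and 0.138 at D0, and Cxcl5, for another such attractant, was at 4.03 and 5.99 TPM at W12 and listed at 0 at D0. The related attractant gene Cxcl1 rose by 3.49 ± 0.48 at W12 (adjusted p = 0.000783) and the cytokine gene Tnf by 3.25 ± 0.30 (adjusted p = 0.0001017). Tnf was at 15.7 and 15.8 TPM at W12 and between 0.39 and 1.88 TPM in the other libraries.

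Neutrophils make several of the same proteins, so their markers were read beside the 5 genes. Of 12 neutrophil markers, 2 reached the filter, Mmp9 and, through W12 alone, Ltf. Mmp9 was higher at W6 and W12, and the summed level of the list was 0.225 to 0.374 TPM at D0 and 44.9 to 63.3 TPM at W12. Most of that sum was Mmp9, a matrix protease that keratinocytes also make, at 36.5 and 50.8 TPM at W12 (5.35 ± 0.25, limma adjusted p = 4.09e-06). Elane and Ngp were listed at 0 in all 10 libraries, Camp at 0 in both W12 libraries, and Ly6g at no more than 0.063 TPM in any. Mpo was at 0.861 and 0.137 TPM at W12 against 0.0260 and 0.0194 at D0. Retnlg was listed at 0 in the 6 libraries up to W2 and was at 1.80 and 0.772 TPM at W12. Cxcr2, a chemokine receptor gene, was at 0.149 and 0.134 TPM at D0, 0.853 and 0.971 at W6, and 3.20 and 2.32 at W12. These 3 were below the filter and not tested, and all 3 were higher in both W12 libraries than in any earlier one. Ltf, which encodes the granule protein lactoferrin, was listed at 0 in the 6 libraries up to W2 and at 1.97 and 8.98 TPM at W12. The list moved with Slpi, Wfdc18 and Lcn2 at W12, and its part in their levels was not tested beyond these marker values. Camp and Ltf also stand in the antimicrobial list. The sort took cells negative for CD45, which neutrophils carry, and its gene Ptprc was at 0.0184 and 0.327 TPM at W12 and 0.0390 and 0.0703 TPM at D0.

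**Figure D4:**
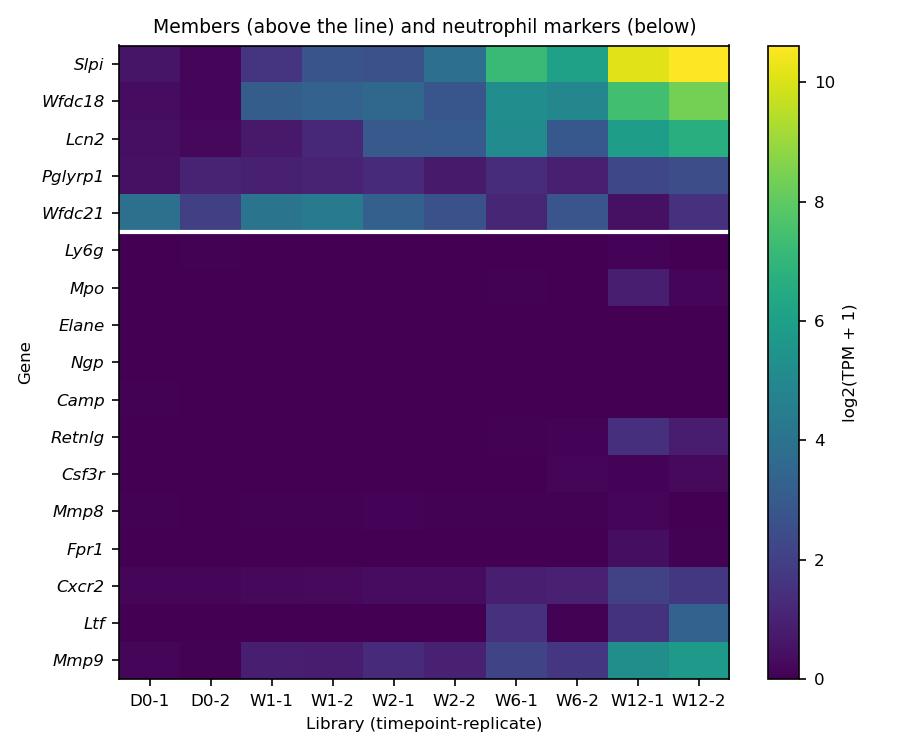
Colour shows log2(TPM + 1) in each of the 10 libraries for the 5 genes, above the white line, and for 12 neutrophil markers, below it. Slpi is bright at W12, at 1126 and 1566 TPM, where Ly6g, Elane, Ngp and Camp stay at or near 0 while Mmp9 reaches 36.5 and 50.8 TPM, Cxcr2 3.20 and 2.32 TPM and Retnlg 1.80 and 0.772 TPM.

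The map of marker levels shows the same by library. Of 14 markers of other immune cells, 2 were tested and 0 passed in limma at W6 or W12, with 1 lower at W6 and 0 at W12 at an unadjusted p under 0.05, and the sum of the list was 3.30 to 3.46 TPM at D0 and 3.96 to 5.45 TPM at W12. Cd68, a macrophage gene, was one of the 2 and reached the filter through W12 alone, at 1.49 and 2.60 TPM against 1.20 and 0.796 at D0, and without it 1 gene was tested. That gene, Tyrobp, was at 1.01 and 1.17 TPM at D0 and 1.17 and 1.21 TPM at W12, with adjusted p = 0.845. Of 11 fibroblast, endothelial and melanocyte markers, 4 were tested, with 0 called at W6 in limma (1 higher at an unadjusted p under 0.05) and 2 higher at W12, and the sum was 2.99 to 7.53 TPM at D0, 6.07 to 62.8 TPM at W6 and 50.6 to 99.3 TPM at W12. W6 replicate 2 stood apart through the fibroblast gene Dcn, at 51.2 TPM there, 1.46 in W6 replicate 1, and 13.2 and 27.2 at W12. Pecam1, an endothelial marker, encodes the CD31 that the sort excluded. It was at 26.1 and 59.8 TPM at W12 and at most 1.14 TPM in any other library. It thus reached the filter through W12 alone, and without it 1 gene was higher at W12. Cdh5, another endothelial marker, was below the filter and not tested. Its levels were 1.61 and 3.64 TPM at W12 and at most 0.0518 TPM in any other library. Dct rose by 1.30 ± 0.44 at W12 (limma adjusted p = 0.0416), a call lost on leaving out any library of W1, W2 or W12 or D0 replicate 1. Leaving out D0 replicate 2 gave 1 gene of the list higher at W6, and leaving out D0 replicate 1 gave 1 at W12. The part of these cells in the W12 levels of the 5 genes was not tested.

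Markers of the sorted cells were present throughout, with Krt14 between 19997 and 37666 TPM. Of 9 listed basal genes, all tested, 1 was higher and 7 lower at W6 and 2 higher and 5 lower at W12. Without Cd34, whose protein the sort excluded, 0 were higher in limma at W6 (0 also at an unadjusted p under 0.05) and 1 at W12. Krt15 fell by 5.37 ± 0.44 and Trp63 by 1.83 ± 0.31 on the log2 scale at W12 (limma adjusted p = 5.73e-05 and 0.00231). Cd34 rose to 16.5 and 32.0 TPM (4.31 ± 0.35, adjusted p = 5.771e-05). Of 8 suprabasal markers, 4 were higher and 1 lower at W6 and 3 higher and 2 lower at W12. Krtdap was up by 2.84 ± 0.63 (adjusted p = 0.0075, and 0.0516 without W12 replicate 1), Ivl by 2.82 ± 0.23 (adjusted p = 5.984e-05), and Lor fell by 2.60 ± 0.43 (adjusted p = 0.0019). Of 9 sebaceous markers, 8 were tested, with 4 higher and 2 lower at W6 and 4 higher and 4 lower at W12, led by Fabp5 (5.14 ± 0.40), Mgst1 (2.38 ± 0.24) and Fasn (-2.20 ± 0.30), with adjusted p of 4.44e-05, 0.000173 and 0.000721. Leaving out D0 replicate 2 gave 1 sebaceous gene lower at W6 and 1 basal gene higher at W12, and leaving out D0 replicate 1 gave 2 sebaceous genes lower at W12.

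Genes with a pattern most like that of Slpi were taken by Pearson's r on log2(TPM + 1) over the 10 libraries, among 1941 tested genes whose timepoint means spanned at least 2 on the log2 scale. The libraries of a timepoint share their treatment and W12 its grafts, so r is a description. Among the 8 leading genes were S100a9 (0.995), Akr1b8 (0.987), Krt6b (0.985), Sprr2h (0.985), Sprr2d (0.983), Fxyd5 (0.982) and Il36b (0.982). Krt6b, a keratin of wounded and overgrowing epidermis, had mean levels of 0.605 TPM at D0, 141 at W6 and 1336 at W12. Lcn2 came at place 40 (0.962) and Wfdc18 at 47 (0.960), and Wfdc21 ran opposite (-0.747). Pglyrp1, whose timepoint means spanned less than 2, was not among the 1941 genes, and its r of 0.861 would have ranked at 313. Over the 8 libraries that were not grafted, among 1103 genes, the leaders were Rbp2 (0.994), Klk6 (0.994), Etv4 (0.990), Teddm3 (0.989), S100a9 (0.988), Pstpip1 (0.987), Sprr1b (0.985) and Kcnmb4os2 (0.984). Of each 8, 1 gene was shared, S100a9. Klk6 and Etv4 had lower means at W12 than at W6 (161.1 against 220.2 TPM and 14.6 against 53.6 TPM), where Slpi was higher at W12.

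**Figure D5:**
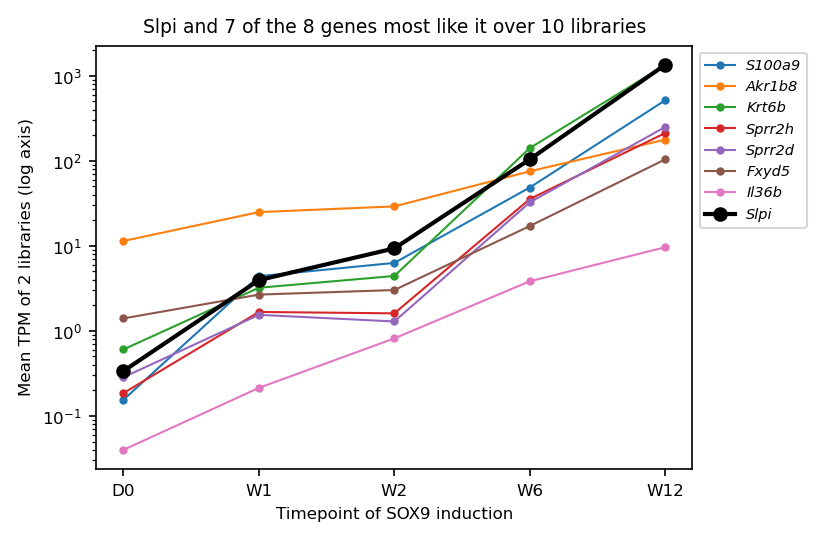
Mean TPM of 2 libraries on a log axis by timepoint for Slpi (thick black line) and 7 of the 8 genes with the highest r with it over 10 libraries. Slpi and Krt6b end at 1346 and 1336 TPM, S100a9 at 514.1 TPM and Il36b at 9.63 TPM.

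These genes were picked for their likeness to Slpi, so a common rise in the plot of means is built in, and r does not reflect its size. Akr1b8 went from a mean of 11.4 TPM at D0 to 177.1 at W12, and S100a9 from 0.155 to 514.1.

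In GRCm38, Slpi lies at chr2:164354070-164389095 on the minus strand and overlaps the microRNA gene Mir7678 on the same strand. Of 15 protein-coding genes within 150000 bases, 5 were tested, with 2 higher and 1 lower at W6 and 2 higher and 2 lower at W12. The seminal vesicle genes Svs2, Svs4, Svs5 and Svs6 nearby were listed at 0 in all libraries. Distances are from this GENCODE span, which reaches far upstream of the RefSeq start whose window is printed above. Matn4, 298 bases from the span and 32886 from the RefSeq start, had means of 0.0986 TPM at D0 and 0.964 at W12. Sdc4, 35152 bases from the span, encodes a cell-surface proteoglycan and was already at a mean of 203.9 TPM at D0, and it fell by 0.93 ± 0.22 on the log2 scale at W12 (limma adjusted p = 0.00908, and 0.0501 without W12 replicate 2). Sdc4 was also the gene called lower at W6 (-0.68, adjusted p = 0.0427), a call lost with the replicate block (0.0551), without the trend (0.0593) and on leaving out any library but D0 replicate 1. Pigt, the other gene lower at W12, lost its call without either D0 library (adjusted p = 0.0523 and 0.107) or W12 replicate 1 (0.157).

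Wfdc18 (chr11:83709015-83711348) and Wfdc21 (chr11:83746940-83752642) lie 35592 bases apart on the plus strand, and moved in opposite directions from D0 to W12. Wfdc17, 2747 bases from Wfdc18, had a mean of 0 at D0 and 1.94 TPM at W12 and was not tested. Of their neighbours besides the pair, only Heatr6 was tested, and it did not pass. Lcn2 (chr2:32384633-32388252, minus strand) had 11 neighbours, of which 10 were tested, with 2 higher and 3 lower at W6 and 1 higher and 7 lower at W12. Without D0 replicate 2, Naif1 and Fam102a lost their W6 calls (limma adjusted p = 0.0999 and 0.0930), which leaves 1 of the 3, and Uck1 and Golga2 their W12 calls (0.0772 and 0.163), as they also did under median-ratio scaling (0.0635 and 0.0582). Pglyrp1 (chr7:18871331-18890459, plus strand) also had 11, of which 5 were tested, with 0 higher and 1 lower at W6 and 0 higher and 4 lower at W12.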

How the data were processed

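RNA of sorted cells was made into low-input libraries. Per the labels, the authors estimated transcript levels with Salmon 1.4.0 against the GRCm38 transcriptome plus the transgene and summed them with Tximport 1.12.3, and deposited TPM for 10 libraries. TPM sum to 1000000 in each library and carry no depth, so counting error is unknown. A deposited table of 4 embryonic libraries holds only the authors' comparison and was not used.

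Members and lists were chosen with earlier results of these data known. Genes that averaged 1 TPM or more were tested on log2(TPM + 1) by limma 3.58.1 (R 4.3.3). The fit had 1 mean per timepoint, a trended prior and Benjamini-Hochberg adjustment at 0.05. The procedure was also run on simulated data in which some genes changed at W6 alone. That setting is simpler than these libraries, and no conclusion is drawn from it. Genes named were the 5 members, up to 3 per list with the largest W12 change past the threshold (or the most abundant), the 8 most like Slpi and protein-coding neighbours within 150000 bases (GENCODE annotation). Of the 8 over 10 libraries, 1 is not reported here. Figures were drawn with matplotlib 3.10.9.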

Additional observations from a re-analysis of the deposited data

How the results depend on the processing

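With 2 libraries per timepoint, the calls were sensitive to single libraries. Leaving out each library in turn gave log2 changes of 2.76 to 3.998 for Slpi from W2 to W6, 1.77 to 2.24 for Lcn2 from W1 to W2, 1.97 to 4.14 from W1 to W6 and -0.040 to 2.13 from W2 to W6. For Wfdc18 these ranges were -0.39 to 0.36 (W2 against W1), 1.69 to 1.97 (W6 against W1) and 1.47 to 2.22 (W6 against W2), and for Wfdc21 -0.97 to 0.91 (W2 against D0) and -3.06 to -1.40 (W6 against W1). For Pglyrp1 they were -0.084 to 0.48 (W1 against D0), -0.020 to 0.54 (W2 against D0), -0.17 to 0.30 (W2 against W1), -0.0060 to 0.40 (W6 against W1) and -0.11 to 0.37 (W6 against W2). At W6 against D0 they were -1.01 to 0.48 for Lor, -0.0058 to 0.42 for Swi5, -0.63 to 0.072 for Golga2, -0.12 to 0.38 for Mypop, -0.36 to 0.32 for Irf2bp1 and -0.14 to 0.49 for Heatr6, and at W12 -0.15 to 0.050 for Sys1 and -0.92 to 0.49 for Defb6.

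Testing all genes with a TPM above 0 ended the calls of Lcn2 from W1 to W6 (3.05, adjusted p = 0.0513), Wfdc18 from W2 to W6 (1.85, 0.0550) and Wfdc21 from W1 to W6 (-2.23, 0.162), and gave 36 listed genes called at W6, of which 34 were among the 55 called before. Fitting only the 4 libraries compared ended those of Lcn2 (3.05, 0.0548) and Wfdc21 (-2.23, 0.0614) and gave 27 listed genes, all among the 55. Wfdc21 also lost its call with a pseudocount of 0.1 (-2.63, 0.0733), without the trend (-2.23, 0.0554) and with the replicate block (-2.23, 0.0689). Signs turned for changes near 0: Wfdc18 at W2 against W1 with median-ratio scaling (0.027) and quantile normalization (0.010), Wfdc21 at W2 against D0 with a pseudocount of 0.1 (0.012), Pglyrp1 with quantile normalization at W2 against D0 (-0.014) and W1 (-0.025), Tyrobp at W12 (-0.21) and Mypop at W6 (-0.10) with quantile normalization, and Sys1 at W12 with median-ratio scaling (0.046) and quantile normalization (0.037). The cause was not tested.

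Libraries share only replicate numbers, and deviations of same-numbered libraries correlated at -0.129 to 0.182. The block left 50 of 55 listed genes called at W6 and 64 of 65 at W12, and crossing the D0 numbers, chosen after seeing the data, gave 56 at W6, with the 55 among them. Counts of single lists, which are small, moved by over 1.5 times in 112 recomputations and did not in 865, all listed genes together included. The number of all genes called, which sets the background shares, moved by over 1.5 times in 40 of 128 recomputations. It ran from 0 to 83 for W2 against W1 (15 as fitted), 856 to 3927 for W6 against W1 (3003), 207 to 3179 for W6 against W2 (2137), 1094 to 5047 for W6 against D0 (4251) and 3362 to 6291 for W12 against D0 (5642). TPM carry no depth, so precision at low levels is unknown.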
